A study of Rattus norvegicus with 6 samples.

Results

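Vesicular glutamate transporters were examined in the substantia nigra pars compacta of the rat, through the array probes of Slc17a6 (VGLUT2) and Slc17a7 (VGLUT1). Probes were chosen by the RefSeq accession that the scanner files give for them, without its version: 3 of 33849 probes were taken, for 2 of the 4013 genes that could be named, of which 2 carry the accession of Slc17a6 (GE1252050 and GE13530) and 1 that of Slc17a7 (GE20847). The probe of Th (GE1254069), which encodes tyrosine hydroxylase, the rate-limiting enzyme of dopamine synthesis, is shown beside them. The samples were 6 adult male Sprague Dawley rats, 5 months old. A minipump under the skin gave 3 of them (numbers 16, 13 and 9) rotenone, which blocks complex I of the respiratory chain, at a dose of 0.5 mg/kg each day over 28 days, and gave the other 3 (numbers 11, 7 and 1) only the solvent of dimethylsulfoxide, polyethylene glycol and the surfactant Pluronic F-127. Each rat contributed 1 one-colour array of amplified RNA from laser-captured tissue, and the question was how rotenone changes expression in this region.

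Glutamate is loaded into synaptic vesicles by the vesicular glutamate transporters, membrane proteins that use the electrochemical gradient built by the vacuolar proton pump. Slc17a6 is the form of most subcortical glutamate neurons, including those of the thalamus, the subthalamic nucleus and the brainstem, while Slc17a7 is the main form of the cerebral cortex, the hippocampus and the cerebellar granule cells. Some midbrain dopamine neurons carry Slc17a6 beside their dopamine genes and can release glutamate as a second transmitter.

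Slc17a6 RNA was measured by both of its probes in every rat, and neither probe passed the test between rotenone and solvent. The brighter probe had a mean 0.36 higher on the log2 scale with rotenone, and the dimmer probe a mean 0.01 higher. The Slc17a7 probe lay at the level of the negative control spots in most rats. The captured tissue carried its defining markers: Th was above background on 6 of 6 arrays. Of the 13 dopamine neuron markers on the array by name, 12 were above background on at least 3 arrays. The same held for 16708 of all 33849 probes. Of these 12 markers, 4 had higher and 8 had lower means with rotenone, none past the test. The 8 include Pitx3, which was above background on solvent arrays only. Fewer cells with a transcript and less of it per cell cannot be told apart in captured tissue.

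The array of rotenone rat 16 stood apart. Correlated with each other array over the tested probes, it reached a mean r of 0.931, where the remaining arrays had 0.956 to 0.964, and 44.2% of its probes were above background, against 48.6% to 51.5%. Several of the values that this array moves are also given without it.

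Before normalization, probe GE1252050 of Slc17a6 gave a net intensity (spot mean minus the median of the local background) of 577, 540 and 767 in solvent rats 11, 7 and 1. In rotenone rats 16, 13 and 9 it gave 588, 935 and 727. The spot was 14.5 to 24.4 times as bright as its local background. Rotenone rat 13 was the highest and solvent rat 7 the lowest. After background correction and quantile normalization (which gives each array the same distribution of values), the log2 intensity was 9.32, 9.12 and 9.59 with solvent and 9.48, 9.99 and 9.64 with rotenone. Of the rotenone rats 13 and 9 were above every solvent rat, and rat 16 lay below solvent rat 1, so that the groups overlapped. All 3 rotenone rats were higher at neither Slc17a6 probe, and at 5.08% of all tested probes.

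The mean of this probe was 9.34 ± 0.23 (SD, n = 3) with solvent and 9.71 ± 0.26 (SD, n = 3) with rotenone. The difference was 0.36 ± 0.20 (SE), with a 95% interval from -0.07 to 0.80, an unadjusted p of 0.0947 in limma and, after Benjamini-Hochberg adjustment, 0.895. The difference was within what the spread among rats allows at this threshold, and 12.7% of all tested probes had a larger one in either direction. Without rotenone rat 16 it was 0.47, and without rotenone rat 13 it was 0.22, neither past the adjusted threshold. Over all probes the same fit called 0 of 16708 (0%) at an adjusted p of 0.05, as did the ordinary test without moderation, and 825 (4.94%) lay below an unadjusted p of 0.05.

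The other probe, GE13530, gave net intensities of 209, 172 and 243 in solvent rats 11, 7 and 1 and of 92.2, 311 and 181 in rotenone rats 16, 13 and 9. Its spot was 3.10 to 9.88 times as bright as the background. The rotenone rats held both the lowest and the highest value of the 6, and the solvent rats lay between them. Its normalized log2 intensity was 8.02, 7.74 and 8.10 with solvent and 7.47, 8.50 and 7.91 with rotenone. The group means were 7.95 ± 0.19 and 7.96 ± 0.52 (SD, n = 3 each). The difference of 0.01 had a 95% interval from -0.55 to 0.56 and an adjusted p of 0.999 in limma, an interval that includes the difference seen at the first probe. Its sign was not settled: without rotenone rat 16 it was 0.25, without rotenone rat 13 it was -0.26, and with the medians of the arrays equalised it was -0.12.

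**Figure D1:**
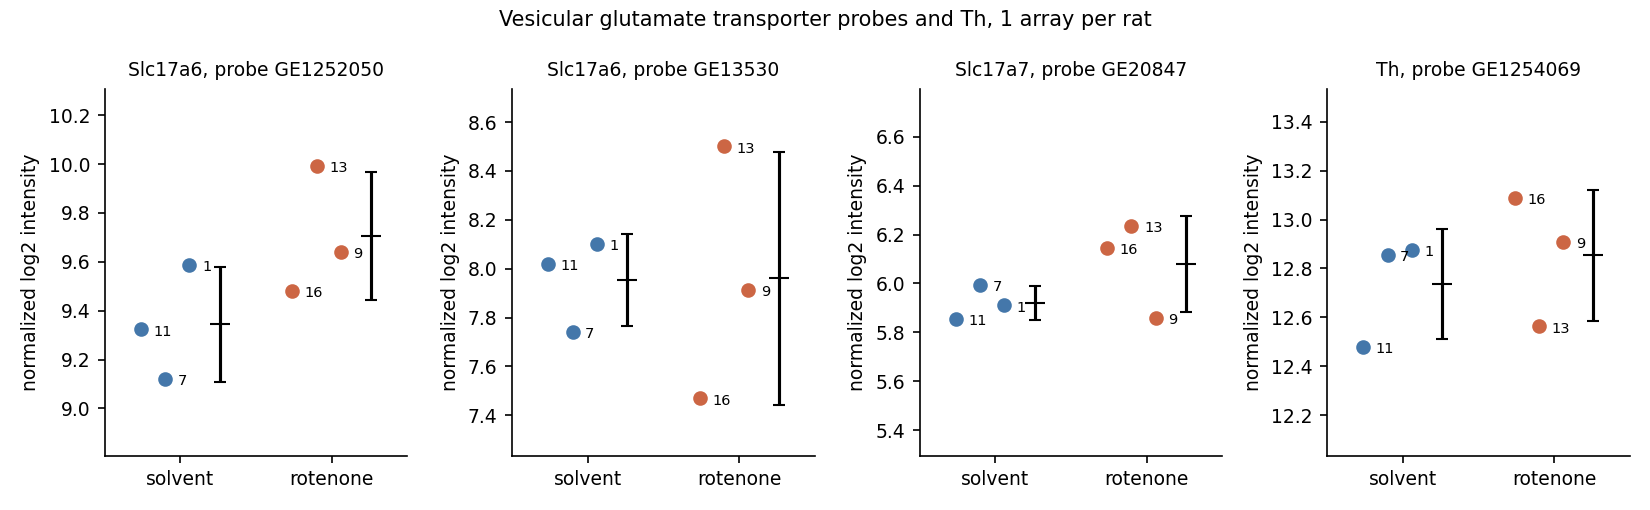
Normalized log2 intensity of both Slc17a6 probes, the Slc17a7 probe and the Th probe in 3 solvent rats (blue) and 3 rotenone rats (orange), with the rat's number beside each point and the mean ± SD in black; every panel spans 1.5 log2 units, and levels are not comparable between panels. Rotenone rat 13 is highest at both Slc17a6 probes (9.99 and 8.50), while rotenone rat 16 is lowest at GE13530 (7.47) and highest for Th (13.09).

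Th gave net intensities of 5655, 7504 and 7680 in solvent rats 11, 7 and 1 and of 9607, 5898 and 7331 in rotenone rats 16, 13 and 9. Its normalized log2 intensity ran from 12.48 to 12.88 with solvent and from 12.56 to 13.09 with rotenone, and the groups overlapped. The difference was 0.12 ± 0.20 (SE; 95% interval -0.32 to 0.55), and -0.00075 without rotenone rat 16. The order of the rats differed from that of Slc17a6: rotenone rat 16, low at the dimmer Slc17a6 probe, had the highest Th value, and rotenone rat 13, high at both Slc17a6 probes, had the second lowest.

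The mean over the pixels of the Th spot was 3.73 to 6.80 times the median over them, against 0.777 to 0.990 times at GE1252050 and 0.896 to 1.04 times at GE13530. The scanner marked both Slc17a6 spots as irregular on each of the 6 arrays, and the Th spot on 4 of the 6, a mark carried by 29.4% to 36.3% of probes per array, and the values above keep such spots. With the spot median in place of the spot mean, a processing added after the data were seen, GE1252050 ran from 9.30 to 9.82 with solvent and from 9.83 to 10.22 with rotenone. The groups then did not overlap, by a gap smaller than the spread in either group, and all 3 rotenone rats were higher at 5.09% of all tested probes as well. The difference was 0.51 (95% interval 0.04 to 0.97), with an unadjusted p of 0.035 and an adjusted p of 0.90 in limma. On the authors' scaled intensity, which divides the net intensity of an array by 1 constant, the same probe was at 39.3, 33.6 and 45.9 with solvent and at 50.2, 63.1 and 52.2 with rotenone. The means of 39.6 ± 6.17 and 55.2 ± 6.96 (SD, n = 3 each) stand in a ratio of 1.39, and those of Th on this scale in a ratio of 1.33. The groups did not overlap on this scale either, where all 3 rotenone rats were higher at 6.25% of all tested probes. GE13530 stayed overlapping on both scales, from 10.7 to 14.6 with solvent and from 7.87 to 21.0 with rotenone in scaled intensity. Scaled values have a median near 1 on each array, so an array of lower median net intensity is raised more. That median was 15.9, 17.1 and 16.5 in solvent rats 11, 7 and 1 and 11.3, 15.4 and 14.3 in rotenone rats 16, 13 and 9. In net intensity the groups overlapped at GE1252050 (means 628 and 750 with solvent and rotenone) and at Th (6946 and 7612).

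Whether the Slc17a6 probes moved together was read from their difference within each array, since a level set by the binding of a probe cancels when arrays are compared. GE1252050 minus GE13530 was 1.30, 1.38 and 1.49 on the log2 scale in solvent rats 11, 7 and 1, and 2.01, 1.49 and 1.73 in rotenone rats 16, 13 and 9. The gap between the probes was widest in rotenone rat 16, and the lowest rotenone value lay just above the highest solvent value (both 1.49 as rounded). The mean was 1.39 ± 0.09 with solvent and 1.74 ± 0.26 with rotenone (SD, n = 3 each), a difference of 0.35 with an exact two-sided permutation p of 0.1, the smallest that 3 rats against 3 can give; adjusted over the 4 within-array differences tested it was 0.4. Without rotenone rat 16 it was 0.22, and the groups overlapped under every other processing of all 6 arrays that gave values: median scaling, cyclic loess, plain subtraction, an offset of 16, the value table and the spot median.

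Against Th within the same array, Slc17a6 showed no difference beyond the spread among rats. GE1252050 minus Th was -3.15, -3.74 and -3.29 with solvent and -3.61, -2.57 and -3.27 with rotenone. The mean difference between the groups was 0.24 (exact permutation p = 0.5), and -0.05 without rotenone rat 13. GE13530 minus Th was -4.46, -5.11 and -4.77 with solvent and -5.62, -4.06 and -5.00 with rotenone. The mean difference was -0.11 (exact permutation p = 0.9), and 0.25 without rotenone rat 16. At both probes rotenone rat 13 was the highest of the 6 rats relative to Th, and the rotenone rats spread more widely than the solvent rats.

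**Figure D2:**
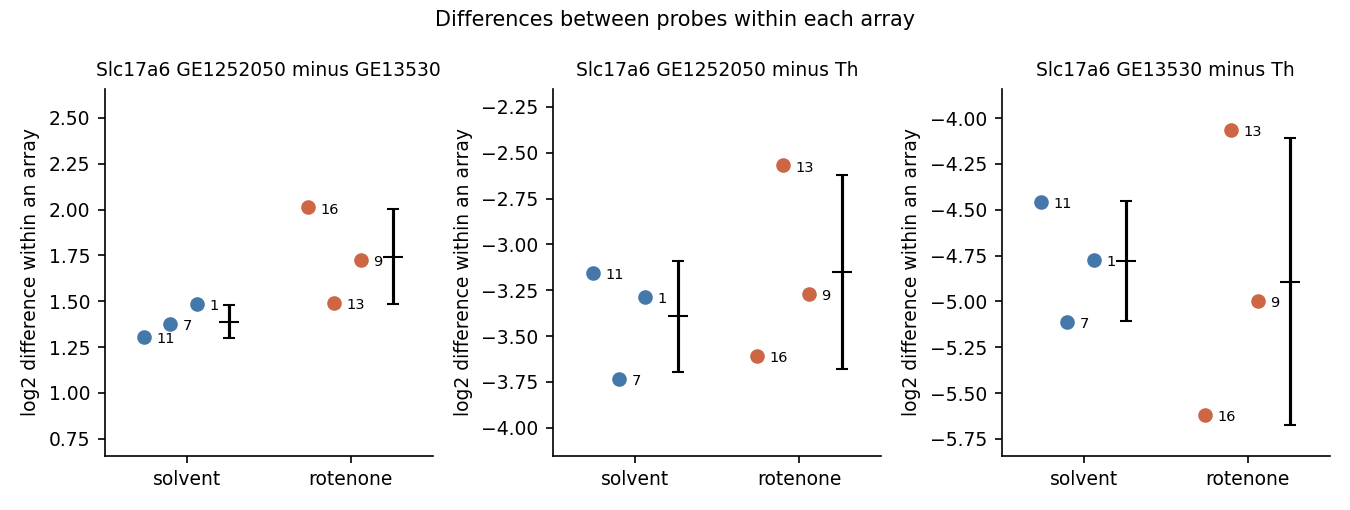
Log2 difference within each array between the Slc17a6 probes (left) and between each of them and Th (middle, right), for 3 solvent rats (blue) and 3 rotenone rats (orange) with rat numbers and the mean ± SD in black; every panel spans 2 log2 units. The gap between the Slc17a6 probes is largest in rotenone rat 16 (2.01), and relative to Th both probes are highest in rotenone rat 13 (-2.57 and -4.06).

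Across the 6 arrays the Slc17a6 probes correlated at Pearson's r = 0.68 (exact permutation p = 0.117; Spearman's rho = 0.60, exact permutation p = 0.242). With the 2 arrays farthest from the median of GE1252050 left out, solvent rat 7 and rotenone rat 13, r was 0.06, and 0.40 with median scaling, over a range that this removal narrows. By the same rule r was -0.50 in the value table in probe order. With the spot median it was 0.86, where solvent rats 11 and 7 were the farthest. Whether the relation holds without the farthest arrays thus depended on the processing and was not settled. Without rotenone rat 16 alone r was 0.88, and without rotenone rat 13 alone it was 0.23. GE1252050 and Th had r = -0.19 and rho = 0.14 (exact permutation p = 0.743 and 0.803), and r = 0.67 without solvent rat 7 and rotenone rat 13. Without that pair r was 0.16 with median scaling. With the spot median it was -0.82 without solvent rats 11 and 7. GE13530 and Th had r = -0.74 and rho = -0.60 (exact permutation p = 0.0792 and 0.242), and r = -0.29 without rotenone rats 16 and 13. Without these rats r was 0.33 with the spot median and -0.36 in the value table in probe order, so its sign was not settled. With all 6 arrays r was -0.72 and -0.84 in these processings. Adjusted over these 3 relations the p values of r were 0.175, 0.743 and 0.175, and those of rho 0.362, 0.803 and 0.362. A group of 3 rats is too small for a correlation within it.

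The genes most like each Slc17a6 probe over the 6 arrays were sought among 2467 named probes, and 5 were taken for each. The lists share no gene, but 5 of so many are too few for that to carry weight. For GE1252050 they were Klf10 (r = 0.94), Gkn1 (0.94), Stxbp3 (0.93), Pdlim7 (0.92) and Asgr2 (0.90). For GE13530 they were Fzd9 (r = 0.96), Gipc1 (0.96), Kifc2 (0.95), Rcbtb2 (0.95) and Gfap (0.94), the last being the intermediate filament gene of astrocytes. All 10 were highest in rotenone rat 13, as both Slc17a6 probes were. These values describe 6 arrays that also share array-wide differences, and in this order the second Slc17a6 probe took place 89 for GE1252050, and GE1252050 took place 239 for GE13530.

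Slc17a7 was above background on 1 of the 6 arrays, that of rotenone rat 13, and was therefore not tested. Its net intensity was 2.21, 8.58 and 4.67 in solvent rats 11, 7 and 1 and 12.0, 20.3 and 2.24 in rotenone rats 16, 13 and 9. Each array carries 256 negative control spots, and Slc17a7 was brighter than 27.3%, 78.1% and 58.6% of them with solvent and than 95.7%, 98.4% and 35.5% with rotenone. The solvent values thus lay inside the range of the control spots, and among the rotenone rats 16 and 13 lay at its upper end. Its normalized log2 values were 5.86 to 5.99 with solvent and 5.86 to 6.24 with rotenone, and the groups overlapped. As all 3 solvent arrays and 2 of the 3 rotenone arrays were not well above background, no fold is given. The related Slc17a8 (VGLUT3), found in scattered neurons that also use other transmitters, was above background on 0 of 6 arrays.

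**Figure D3:**
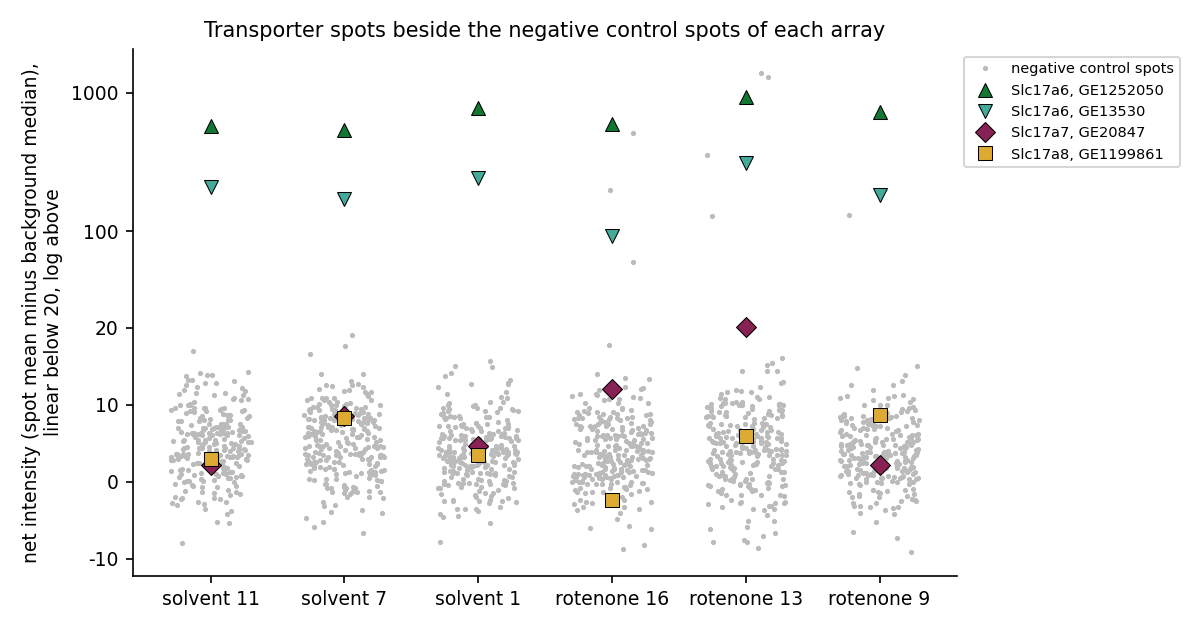
Net intensity of both Slc17a6 probes, Slc17a7 and Slc17a8 on each of the 6 arrays (coloured symbols) beside the 256 negative control spots of that array (grey); the axis is linear below 20 and logarithmic above. Both Slc17a6 probes lie far above the bulk of the control spots on every array, whereas Slc17a7 reaches 20.3 only in rotenone rat 13 and Slc17a8 stays among the control spots; a few control spots of the rotenone arrays are bright, up to 1379 in rat 13.

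A probe at background was not by itself a sign that the transcript is missing. Both probes of Slc1a2, the main astrocyte glutamate uptake carrier, were above background on 0 of 6 arrays. For the dopamine transporter Slc6a3 and the gap junction gene Gja1, 1 probe was at background on all 6 arrays while another was above it on all 6. Slc17a7 has 1 probe here, so that no second reading was available. Of the other forebrain glutamate neuron markers named on the array, Camk2a and Neurod1 were above background on 1 array each and Neurod2 on 0.

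Markers of glutamate neurons in nuclei near the nigra were set beside Slc17a6, as laser capture can include neighbouring cells. Besides Slc17a6, 6 such genes were on the array by name and 4 were tested, 2 higher and 2 lower in mean with rotenone, none past the test. The summed scaled intensity of the 6 was 37.9 to 47.2 with solvent and 49.8 to 58.5 with rotenone, without overlap, and was highest in rotenone rat 16. On this scale the sums of the glutamate supply genes (684.8 to 723.5 against 761.0 to 1029) and of the astrocyte genes did not overlap either. Both of these lists hold the bright genes Glul and Slc1a3, so their sums are not separate observations. How often sums of other genes separate in this way was not counted. Among single tested probes all 3 rotenone rats were higher at 6.25% on this scale. Each of these sums was highest in rotenone rat 16, whose array had the lowest median net intensity. The sums of the other lists overlapped, among them those of the dopamine, GABA, oligodendrocyte, microglia and vacuolar pump genes. On the normalized scale the median deviation of the 4 tested genes of nearby nuclei from the solvent mean was -0.16 to 0.16 and 0.06 to 0.15, and overlapped. It also overlapped for the glutamate supply genes and for the astrocyte genes. Tac1, the precursor of substance P, differed by 0.18 (95% interval -0.18 to 0.53). The cadherin gene Cdh23 differed by 0.66 (interval 0.21 to 1.11; adjusted p = 0.895 in limma). Barhl1, a marker of the subthalamic and nearby lineages, was at background on all 6 arrays at both of its probes, and the part of such cells in the Slc17a6 values was not tested.

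Markers of other cell types in the tissue were compared over the same rats. The median deviation of 6 astrocyte genes from the solvent mean was -0.16, 0.37 and 0.18 in rotenone rats 16, 13 and 9 and -0.02 to 0.02 in the solvent rats, each of which is part of that mean. That of 7 GABA neuron genes was -0.34, 0.17 and -0.07 in the same rotenone rats and -0.12 to 0.13 with solvent. The summed scaled intensity of the 8 astrocyte genes on the array was 614.7 to 682.0 with solvent and 740.5 to 963.8 with rotenone, with rat 16 the highest and with Aqp4 and Slc1a2 at background on all 6 arrays. For 8 oligodendrocyte genes the median deviation was -0.38, -0.06 and -0.31 in rotenone rats 16, 13 and 9 and -0.31 to 0.33 with solvent, and for 4 microglia genes it was -0.13, -0.08 and -0.08 against -0.07 to 0.06. By the median deviation rotenone rat 16 was lowest and rat 13 highest among the rotenone rats in the astrocyte, GABA, oligodendrocyte and microglia lists, as at GE13530, and also for the vacuolar pump, the other vesicular transporters and the nearby glutamate nuclei. By the summed scaled intensity of the astrocyte genes that order was the reverse. Of 5 serotonin and acetylcholine neuron genes on the array only Fev was tested, with a difference of 0.09. By the median deviation rat 16 was the highest rotenone rat there, with 0.44, -0.08 and -0.08 in rats 16, 13 and 9. It was also the highest for the glutamate supply genes (0.11, 0.05 and -0.13). The same held for the metabotropic glutamate receptor and Homer genes (0.33, -0.03 and 0.21), where rat 13 was lowest. For the 12 tested dopamine neuron genes the order was another, with -0.17, -0.24 and -0.02. The part of cell composition in the Slc17a6 values was not tested.

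Other vesicular transporters did not pass the test. Slc18a2, which loads monoamines, had log2 means of 9.63 in the solvent rats and 9.08 in the rotenone rats, which differ by -0.54 (95% interval -1.13 to 0.05), and by -0.26 with rotenone rat 13 left out and -0.82 with rat 9 left out. Slc32a1, which loads GABA, differed by 0.13 (interval -0.39 to 0.66), and by 0.31 without rotenone rat 16. Among partners in dopamine and GABA synthesis and uptake, Slc6a3 differed by -0.20, Ddc by 0.07 and Gad1 by -0.03. The 12 tested dopamine neuron genes, 4 higher and 8 lower, had a median change of -0.10. For 2 of them the interval lay below 0. Sncg differed by -0.67 (95% interval -1.19 to -0.15) and Nr4a2 by -0.79 (interval -1.51 to -0.07). Both were lowest in rotenone rat 16. Sncg was 9.90, 10.77 and 10.75 in rotenone rats 16, 13 and 9 and 11.10 to 11.19 with solvent. Nr4a2 was 5.94, 6.39 and 7.44 in these rotenone rats and 7.20 to 7.54 with solvent, so that the groups overlapped. Nr4a2 was above background on 3 solvent arrays and 2 rotenone arrays. Pitx3, counted among the 8 lower genes, was above background on 3 solvent arrays and 0 rotenone arrays, and so was tested through the solvent arrays alone. Its log2 values lay near background, at 6.15, 6.14 and 6.14 in solvent rats 11, 7 and 1. In rotenone rats 16, 13 and 9 they were 5.95, 6.15 and 5.82, so that the groups overlapped. Gad2 differed by -0.41 (95% interval -0.79 to -0.02, unadjusted p = 0.040 in limma). This Gad2 probe was above background on 2 solvent arrays and 1 rotenone array, and the other Gad2 probe on 0 arrays. Again no adjusted p was below 0.05. Rotenone was thus above solvent in mean at GE1252050 and below it at Slc18a2, and the intervals of both differences include 0.

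Genes that supply and clear glutamate were also without a call. Of 22 listed, 15 were on the array by name and 8 were tested, 5 higher and 3 lower, with a median log2 change of 0.03, against 0.00892 over all tested probes, of which 51.6% were higher. Glul, which makes glutamine in astrocytes, differed by 0.26 (95% interval -0.16 to 0.67), the astrocyte uptake carrier Slc1a3 by 0.24 (interval -0.16 to 0.64), the mitochondrial aminotransferase Got2 by 0.04 and glutamate dehydrogenase Glud1 by -0.54 (interval -1.30 to 0.23). With rotenone rat 16 left out Glud1 differed by -0.12, and with rat 13 left out by -0.85.

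The vacuolar proton pump, whose gradient drives the transporters, had 6 of its 21 listed genes on the array, all tested, with 2 higher and 4 lower and a median change of -0.19. The membrane subunit Atp6v0c differed by 0.20 and the stalk subunit Atp6v1e1 by -0.16, and without rotenone rat 16 by 0.0090 and -0.03. In rotenone rat 16 the median deviation of these genes was the lowest of the 6 arrays, at -0.49, while their summed scaled intensity was the highest, at 1110 against 745.8 to 886.4 on the others. Of 9 metabotropic glutamate receptor and Homer genes on the array, 4 were tested, with none past the test. All 4 had higher means with rotenone, by a median of 0.11, where 51.6% of all tested probes were higher. Grm4, Grm7 and Homer2 had low log2 means, from 6.39 to 6.58. They differed by 0.14, 0.08 and 0.06, each with an interval that includes 0. Homer1, a scaffold of these receptors, differed by 0.22 (95% interval -0.17 to 0.61), and by 0.09 without rotenone rat 16.

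**Figure D4:**
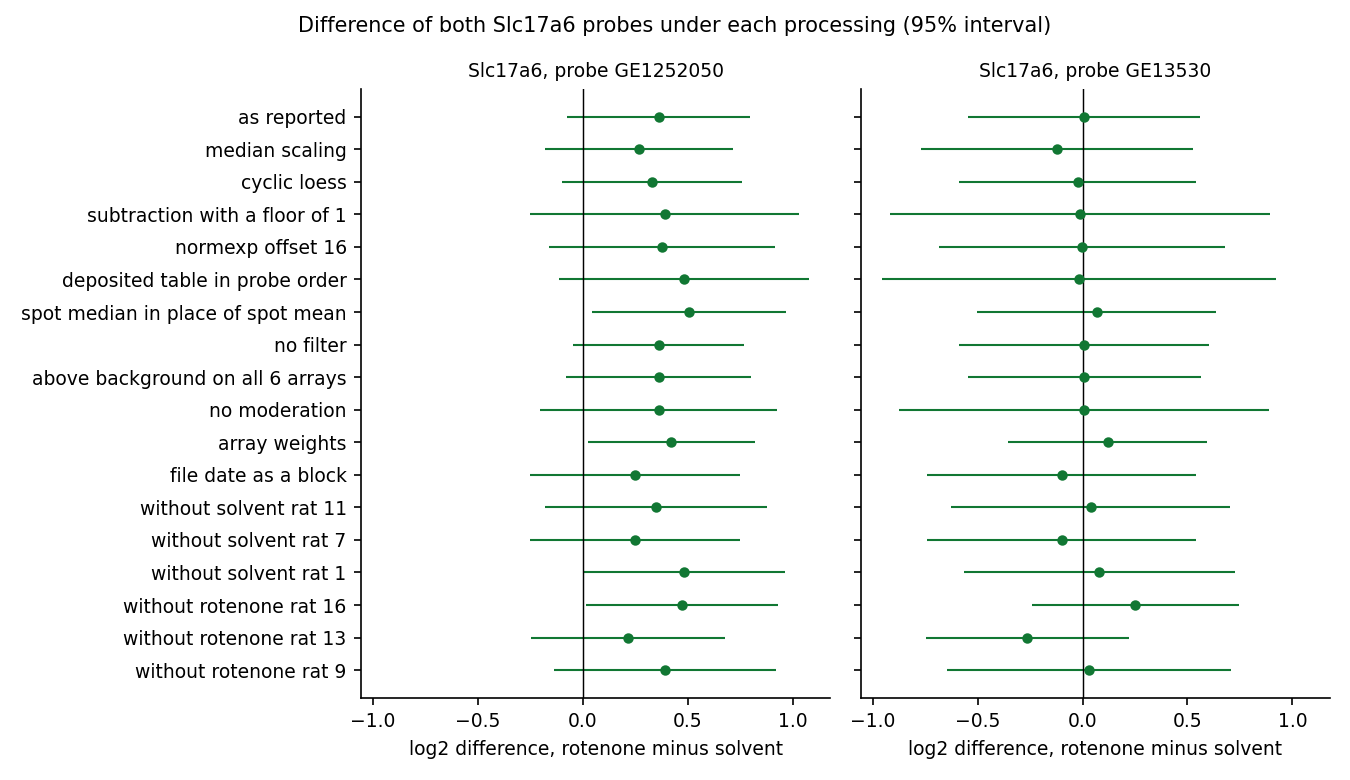
Log2 difference of rotenone minus solvent at both Slc17a6 probes under each processing that gives a value, with its unadjusted 95% interval; the deposited value table as it stands, in which the column of solvent rat 7 is out of probe order, is left out. GE1252050 stays above 0, from 0.22 to 0.51, whereas GE13530 lies on both sides of 0, from -0.26 to 0.25.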

How the data were processed

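The deposited scanner files give linear intensities per spot: its mean and median, the local background, their difference, and that difference divided by 1 constant per array. Per the labels' protocols, 2 µg of total RNA was amplified and labelled with biotin; the sources used here do not give the scanner software. The value table deposited by the authors holds the scaled intensity (linear, column medians 0.994 to 1.00, no direction); its column for solvent rat 7 equalled the scanner file at 0.898% of probes, so it served only as an alternative.

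Accessions without version were matched to RefSeq names of GRCr8, which named 4675 of 33849 probes (13.8%, 4013 genes). Background was corrected with normexp (offset 50), and the log2 values of all but the control spots were quantile-normalized. The offset draws differences towards 0. A spot counts as above background unless the scanner's own mark calls it near background or masked. Probes above background on at least 3 arrays (16708) entered a two-sided limma fit (limma 3.58.1 in R 4.3.3), adjusted by Benjamini-Hochberg; the script was tested on simulated data. Single values were tested by exact permutation. The number of arrays limits the precision, and p values measure the spread among 3 rats per group. Lists use 1 probe per gene, the brightest. Named genes are the members, Th, fixed transporter, dopamine and GABA genes, and up to 4 of the brightest per list. The 5 genes most like each Slc17a6 probe are named too. Cdh23, Sncg and Nr4a2 were singled out for their differences, and Pitx3 for its background marks. Members and lists were chosen with earlier results of these data known.

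Alternatives were median scaling, cyclic loess, subtraction, an offset of 16, other filters, marked spots left out, the value table, no moderation, array weights, the file date as a block, each rat left out, and, added later, the spot median.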

Additional observations from a re-analysis of the deposited data

How the results depend on the processing

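Over 18 alternatives the difference of GE1252050 was above 0 in each and past the adjusted threshold in none (adjusted p 0.709 to 1.00 in limma), while 4 had an unadjusted p below 0.05. It was 2.91 in the value table as it stands, and with a rat left out lay between 0.22 (without rotenone rat 13) and 0.48. GE13530 had 10 of 18 above 0. It fell below 0 with median scaling (-0.12), cyclic loess (-0.024), subtraction (-0.012), an offset of 16 (-0.0021), the value table in probe order (-0.016) and the file date as a block (-0.10, the same as without solvent rat 7, the only array with another date), and lay between -0.26 and 0.25 with a rat left out. Leaving out marked spots left no value at either probe. The other filters and the fit without moderation cannot move the difference of either probe, which stayed at 0.36 and 0.01. The file date repeats the fit without solvent rat 7, so the 18 alternatives are not 18 separate checks. The change of GE1252050 minus GE13530 lay between 0.22 and 0.48 with a rat left out, without a change of sign in 14 alternatives. GE1252050 minus Th lay between -0.046 and 0.47 with a rat left out and was -0.77 in the value table as it stands, where the wrong probes of solvent rat 7 also moved the median over all probes to 0.74. GE13530 minus Th lay between -0.53 and 0.25. Th lay between -0.012 and 0.26 with a rat left out. Probes called numbered 2 with marked spots left out (3910 tested), 1 with the spot median, and 0 to 3 with a rat left out, 3 without solvent rat 1; the cause was not tested. No paired analysis was possible because the groups share no replicate numbers.

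For 15 of the other genes whose difference is given, 250 of 270 values kept their sign and side, again including settings that cannot move a difference. The table as it stands turned Slc18a2 (0.10), Slc6a3 (3.69), Slc32a1 (-1.74) and Atp6v1e1 (1.94), and in probe order Slc6a3 (0.00031), Gad1 (0.092) and Atp6v1e1 (0.067). Ddc turned with the spot median (-0.31) and array weights (-0.031), Slc32a1 without marked spots (-0.30), and Got2 with median scaling (-0.013) and array weights (-0.014). With a rat left out Ddc lay between -0.11 and 0.31, Gad1 between -0.089 and 0.039, Slc32a1 between -0.14 and 0.31 and Got2 between -0.045 and 0.14. Under 6 other processings of all arrays the 5 genes most like GE1252050 had r from 0.71 to 0.97 with it, and those of GE13530 from 0.84 to 0.97. The difference of Slc17a7, near background, moved from 0.16 to 1.06 with subtraction and further in the value table, so that no fold is read from it. Signal near background limits Slc17a7 and Slc17a8 most.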
